A study of Mus musculus with 6 samples.

Results

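The rod's ionic currents and the cGMP that gates them depend on a small set of membrane and calcium-sensing proteins, and 8 of their mouse genes are described here: the cyclic-nucleotide-gated channel subunits Cnga1 and Cngb1, the exchanger Slc24a1, the guanylate cyclases Gucy2e and Gucy2f, the cyclase activators Guca1a and Guca1b, and the potassium channel subunit Kcnv2. They were listed by gene symbol, with earlier results of these data known, and taken from the main chromosomes, 8 of the 52143 genes in the deposited tables. All 8 passed the filter on low counts, as did 12815 genes in all. RNA was sequenced from rods sorted on postnatal day 10, in 3 libraries labelled Jun knockdown (1 shRNA clone against Jun, a bZIP transcription factor, expressed from a plasmid) and 3 control libraries (the pLKO.1-Scrambled plasmid). In both groups the plasmid was electroporated into newborn retinas on postnatal day 0 together with the Nrlp-EGFP vector, in which a rod promoter drives EGFP, and the EGFP-positive cells were sorted. Nothing in the labels says how many animals or litters stand behind a library, nor their strain, and the p-values below therefore reflect variation among 6 libraries that may be partly technical.

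In darkness, cGMP holds the channel of the rod outer segment open, and sodium and calcium flow in. Light lowers cGMP, the channel closes, and the exchanger goes on removing calcium, which lets the activator proteins switch on the guanylate cyclases that rebuild cGMP. In the inner segment, potassium channels carry the matching outward current, and Kcnv2 encodes a modulatory subunit that is silent alone and tunes those channels. Inherited loss of several of these genes causes retinitis pigmentosa, cone-rod dystrophy or Leber congenital amaurosis in people.

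Libraries labelled Jun knockdown held 13211300 to 13998400 counts, against 32150100 to 105801000 counts in controls, as totals to 6 significant digits, so depth and group cannot be told apart. Jun itself measured 1.84, 17.6 and 19.3 CPM (TMM-scaled counts per 1000000) in labelled replicates 1, 2 and 3, against 6.47, 5.85 and 7.16 CPM in the controls. Its RNA was therefore lower than in every control in replicate 1 and higher in replicates 2 and 3, and the group is called by its label throughout. Rod markers were present in every library, but 6 of 8 passed as lower, with summed levels of 5532 to 8172 CPM in the labelled libraries and 76370 to 97464 CPM in controls. Cone markers summed to 2894 to 3485 CPM in the labelled libraries and 3562 to 7115 CPM in controls, with 1 of 10 lower. Bipolar cell markers summed to 664 to 1034 CPM in the labelled libraries and 495 to 756 CPM in controls. Of these 10 markers, 1 passed as lower and 1 as higher. Amacrine and ganglion cell markers summed to 14.97 to 67.2 CPM in the labelled libraries and 13.3 to 92.5 CPM in controls. None of the 5 tested passed. Müller glia markers summed to 278 to 370 CPM in the labelled libraries and 1805 to 2162 CPM in controls, with 0 of 10 passing. Microglia markers summed to 1.80 to 6.54 CPM in the labelled libraries and 783 to 1042 CPM in controls, with 4 of 9 tested lower. Blood and vessel markers summed to 2.38 to 4.25 CPM in the labelled libraries and 167 to 335 CPM in controls, with 3 of 6 tested lower. None of these listed rod, cone, Müller glia or microglia genes was at 0 in all libraries of a group, whereas Hba-a1 and Sncg were at 0 in the labelled libraries and Cdh5 and Kcnj8 in controls. Retained-intron transcripts held 7.84% to 9.63% of the counts of protein-coding genes in the labelled libraries and 2.78% to 3.56% in controls. The part of these differences in the results on the 8 genes was not tested, and in bulk libraries fewer cells of a type and less RNA per cell cannot be told apart.

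Of the 2 channel subunit genes, Cngb1 fell with all its forms pooled, and Cnga1 did not pass the test. Cngb1 was also the only one of the 8 genes to pass. Its full-length form Cngb1-202, which encodes the subunit, overlapped between the groups and did not pass by itself. The log2 change of that form was -0.52 (SE 0.83, adjusted p = 0.824, edgeR over transcripts). Cnga1 encodes the alpha subunit, which can form a channel by itself (ENSMUSG00000067220, chromosome 5, 72603696 to 72644275, minus strand, GRCm38). It measured 1677, 1074 and 1493 CPM in labelled replicates 1, 2 and 3, against 1556, 1021 and 1099 CPM in controls 1, 2 and 3. The groups overlap. The processed pseudogene Gm5297 lies inside the gene on the same strand and reached at most 29.8 CPM, so reads could be split between them. A log2 change of 0.21 (SE 0.30) had an adjusted p of 0.760 in edgeR, with means of 1415 ± 309 CPM in the labelled libraries and 1225 ± 289.5 CPM in controls (SD, n = 3 each). Cngb1 encodes the beta subunit, which modulates the channel and ties it to the disc rim (ENSMUSG00000031789, chromosome 8, 95239045 to 95306585, minus strand). It measured 195, 131 and 78.1 CPM in the labelled libraries and 782, 1117 and 542 CPM in controls. Each labelled library was below each control. By edgeR its log2 difference came to -2.60, with SE 0.49 and adjusted p = 0.0409, a 6.04-fold lower level, with means of 135 ± 58.5 CPM in the labelled libraries and 814 ± 289 CPM in controls (SD, n = 3 each). Thus 1 of 8 genes was called lower, against 1.35% of all tested genes called in that direction and 1.67% called in either. None was called higher, against 0.32% of all tested genes, 0 of the 8 at an unadjusted p under 0.05 with a higher level, and 0 with DESeq2 or limma-voom. In either direction 2 were at an unadjusted p under 0.05, against 16.8% of all tested genes. The call of Cngb1 ended when any one of the 6 libraries was left out (adjusted p 0.0566 to 0.161), under each of the other 3 scalings, after thinning, and with DESeq2 or limma-voom, while the log2 fold change lay between -2.98 and -2.09 in every alternative run.

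**Figure D1:**
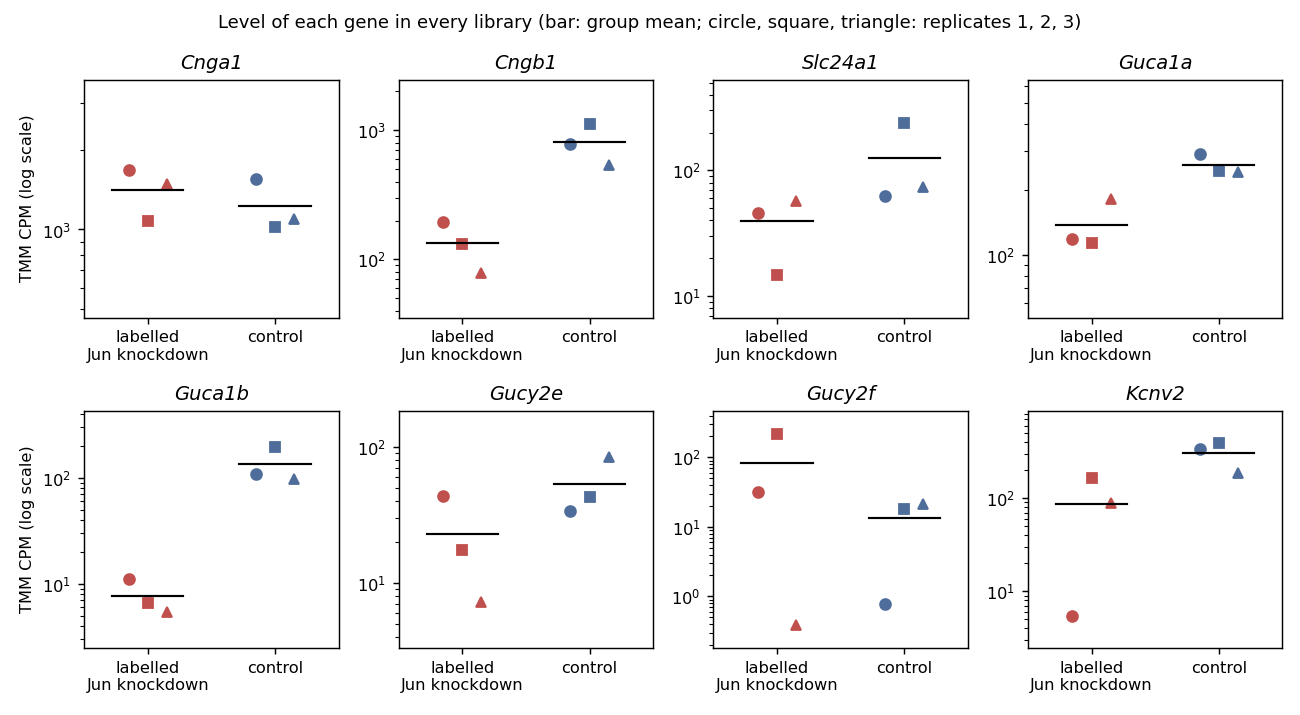
TMM-scaled CPM of the 8 genes on log axes in the 3 libraries labelled Jun knockdown and the 3 controls, with a bar at each group mean. Cnga1 overlaps between the groups, while every labelled library lies below every control for Cngb1, Slc24a1, Guca1a, Guca1b and Kcnv2.

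To set the start regions of the 2 channel subunits side by side, the 250 bases before the RefSeq start of each gene are shown 5′ to 3′ on the gene's strand, with capitals marking TAATCC or its reverse complement GGATTA, the letters bound by the photoreceptor factor CRX. The Cnga1 window is chr5:72642753-72643002 and the Cngb1 window chr8:95306586-95306835, both on the minus strand of GRCm38.p6. The Cnga1 window adjoins the start of the main transcript Cnga1-201 at 72642752. It lies inside the annotated gene, since the retained-intron transcript Cnga1-206 spans 72642287 to 72644275.
Cnga1: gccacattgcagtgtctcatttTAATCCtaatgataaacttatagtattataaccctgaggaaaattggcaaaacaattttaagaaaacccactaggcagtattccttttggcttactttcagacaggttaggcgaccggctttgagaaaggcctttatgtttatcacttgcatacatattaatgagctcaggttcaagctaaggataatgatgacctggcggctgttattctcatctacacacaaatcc
Cngb1: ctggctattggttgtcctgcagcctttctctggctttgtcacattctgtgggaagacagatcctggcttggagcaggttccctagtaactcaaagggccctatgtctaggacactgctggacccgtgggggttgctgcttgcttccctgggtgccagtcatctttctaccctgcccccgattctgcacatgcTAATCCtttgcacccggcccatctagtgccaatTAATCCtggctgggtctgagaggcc
Cnga1 holds 1 match that begins 228 bases before the start. Cngb1 holds 2, which begin 58 and 25 bases before it. RefSeq windows were found for 6 of the 8 genes, and 5 of the 6 held the CRX letters (Cnga1, Cngb1, Guca1a, Gucy2e and Gucy2f, but not Slc24a1), against 6.25% of 32851 promoter windows of the same length. The other letters searched on both strands were TGCTGA, part of the site bound by the rod factor NRL (in 16.1% of all windows), TGANTCA, the AP-1 site that Jun binds as a dimer (6.75%), and TGACGTCA, the CRE site (1.55%). None of the 6 windows held any of these. With no match to the other letters, no matches overlap, and a match or its lack describes the letters alone.

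Cngb1 makes several proteins from one start. The full-length transcript Cngb1-202 has 33 exons and 1325 codons, spans 95239045 to 95306585 and encodes the channel subunit. Cngb1-201 starts at the same base, has 13 exons, ends at 95290593 and has 326 codons, so it stops before the later exons of the full-length form. The gene is known for short soluble products of this kind, the GARP proteins, which hold a glutamic-acid-rich part and no membrane part. Cngb1-202 measured 80.2, 102 and 66.5 CPM (transcript scale) in labelled replicates 1, 2 and 3, against 163, 166 and 27.3 CPM in controls. These overlap, because control 3 was the lowest of all 6 libraries. Cngb1-201 measured 59.7, 23.9 and 6.87 CPM in the labelled libraries, against 445, 745 and 239 CPM in controls, with no overlap. On the log2 scale the changes were -0.52 for Cngb1-202 (SE 0.83, adjusted p = 0.824) and -3.98 for Cngb1-201 (SE 0.91, adjusted p = 0.0921, edgeR over 20706 transcripts), and neither passed in that test. With no filter on low counts Cngb1-201 passed (a log2 change of -4.11, adjusted p = 0.000275). With library totals as the scaling the change of Cngb1-202 was 0.34. The transcripts Cngb1-206 and Cngb1-207, both annotated for nonsense-mediated decay, and the coding fragment Cngb1-210 lie in the same first part of the gene. Of these, Cngb1-206 held 0, 0 and 5.40 counts in the labelled libraries, against 1012, 3599 and 549 counts in controls, and Cngb1-207 held 0 counts in all 3 labelled libraries. The retained-intron form Cngb1-209 measured 31.4, 25.6 and 15.4 CPM in the labelled libraries, against 63.2, 114 and 74.0 CPM in controls.

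**Figure D2:**
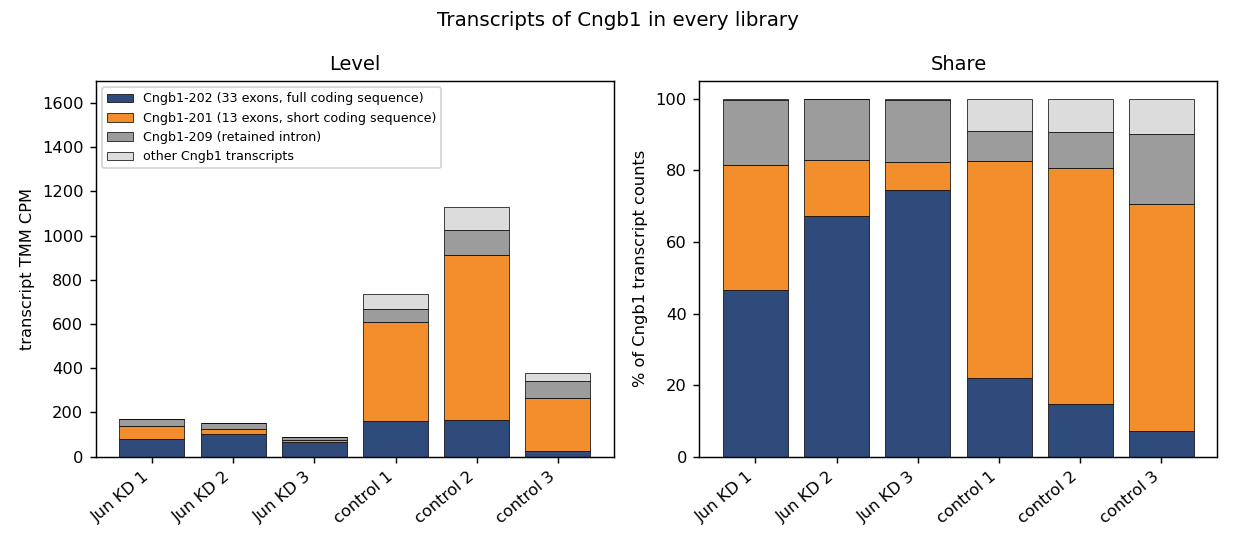
Stacked bars of the Cngb1 transcripts in each library, as transcript-scale TMM CPM (left) and as a percentage of the gene's transcript counts (right), with libraries labelled Jun knockdown (Jun KD) left of the controls. The full-length form takes 46.7% to 74.6% of the bar in the labelled libraries and 7.23% to 22.1% in controls.

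Counted as shares of Cngb1 transcript counts, the full-length form held 46.7%, 67.2% and 74.6% in labelled replicates 1, 2 and 3, against 22.1%, 14.7% and 7.23% in controls. Every labelled library was above every control. The mean shares were 62.8 ± 14.5% in the labelled libraries and 14.7 ± 7.44% in controls (SD, n = 3 each, two-sided exact permutation p = 0.1, the smallest that 3 against 3 libraries can give). This share was examined after its values were seen. Divided by transcript length, the full-length share was 12.4% to 26.3% in the labelled libraries and 1.40% to 5.45% in controls, again without overlap. These shares come from the estimated split of reads among overlapping transcripts, and the retained-intron share of all protein-coding genes, given above, moved with the same groups. Its part here was not tested. The share of Cngb1 counts on all transcripts not annotated as coding was 17.6 ± 0.641% in the labelled libraries and 18.2 ± 6.37% in controls (exact permutation p = 1, adjusted p = 1 over the 3 genes with such transcripts). For Cnga1 it was 1.46 ± 1.03% in the labelled libraries and 1.41 ± 0.855% in controls (exact permutation p = 1, adjusted p = 1), and for Gucy2e 0% in the labelled libraries and 0.856 ± 1.48% in controls (exact permutation p = 1, adjusted p = 1). Cnga1-201, with 684 codons, held 95.6% to 99.0% of the gene's counts in the labelled libraries and 97.5% to 98.9% in controls.

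Slc24a1 encodes the rod exchanger that trades sodium for calcium and potassium (ENSMUSG00000034452, chromosome 9, 64922861 to 64951607, minus strand). It measured 46.0, 14.8 and 56.9 CPM in the labelled libraries and 62.9, 239.6 and 74.3 CPM in controls. The groups do not overlap, but the highest labelled library and the lowest control lie close together and control 2 stands well above the others. With edgeR, the log2 change was -1.68 (SE 0.89, adjusted p = 0.373), and it was not called. Without control replicate 2 it was -0.81.

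Per length, the 2 guanylate cyclase genes had the lowest levels of the set in controls. Gucy2e encodes the main cyclase of photoreceptors, the mouse counterpart of human GUCY2D (ENSMUSG00000020890, chromosome 11, 69218117 to 69237036, minus strand). It measured 43.6, 17.4 and 7.26 CPM in the labelled libraries, against 33.5, 42.9 and 83.8 CPM in controls. The groups overlap through labelled replicate 1. A log2 change of -1.23 (SE 1.10) had an adjusted p of 0.603 in edgeR. It was -2.14 without labelled replicate 1 and -0.73 without control replicate 3. A second coding form, Gucy2e-203, took 36.6 and 30.0 counts in labelled replicates 2 and 3, which is 11.8% and 34.5% of the gene's counts there, and 0 counts in the other 4 libraries. Its coding sequence has 1108 codons, as many as that of Gucy2e-201, and at so few counts the split between them is uncertain.

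Gucy2f encodes the second retinal cyclase and lies on the X chromosome (ENSMUSG00000042282, 142081160 to 142196931, minus strand). It measured 31.3, 214 and 0.393 CPM in labelled replicates 1, 2 and 3, against 0.768, 17.9 and 21.1 CPM in controls. Replicate 3 of the labelled group and control 1 held 5.67 and 28.4 counts in all, and labelled replicate 2 held 3795. Within the labelled group the coefficient of variation was 141%, the widest of the 8 genes, against 82.5% in controls. By edgeR its log2 difference came to 2.63, with SE 1.83 and adjusted p = 0.501, and without labelled replicate 2 it was 0.30.

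The 2 activator genes are neighbours on chromosome 17 in tail-to-tail orientation, 1590 bases apart, and both encode calcium-binding proteins that stimulate the cyclases when calcium falls. Guca1a (ENSMUSG00000023982, 47394558 to 47400584, minus strand) measured 118, 113 and 182 CPM in the labelled libraries, against 292, 242 and 241 CPM in controls. Guca1b (ENSMUSG00000023979, 47385393 to 47392967, plus strand) measured 11.2, 6.54 and 5.43 CPM in the labelled libraries, against 109, 196 and 96.7 CPM in controls. For both genes each labelled library was below each control, but the distance differed widely. The log2 fold change of Guca1a was -0.91 (SE 0.48, adjusted p = 0.372, edgeR) and that of Guca1b was -4.11 (SE 0.88, adjusted p = 0.0553, edgeR), so Guca1b had the largest difference of the set and missed the threshold. Guca1b passed with DESeq2 (adjusted p = 0.000505), with no filter, with a stricter one and with limma-trend on the deposited signal, but not with limma-voom, another scaling, thinning, the replicate block or any library left out (adjusted p up to 0.221). Both genes also have a copy on a patch sequence, and the deposited counts of the copies are identical to those of the chromosome 17 genes in every library, so the reads appear divided equally between the copies and the levels are uncertain. With the copies added together, Guca1b passed as lower with a log2 fold change of -4.12 (adjusted p = 0.0254).

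Kcnv2 encodes the modulatory subunit of the inner segment potassium channel (ENSMUSG00000047298, chromosome 19, 27322588 to 27337179, plus strand). It measured 5.38, 164 and 89.6 CPM in labelled replicates 1, 2 and 3, against 333, 395 and 184 CPM in controls. The groups do not overlap, and labelled replicate 1 was far below the other labelled libraries. With edgeR, the log2 change was -1.82 (SE 0.97, adjusted p = 0.377).

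**Figure D3:**
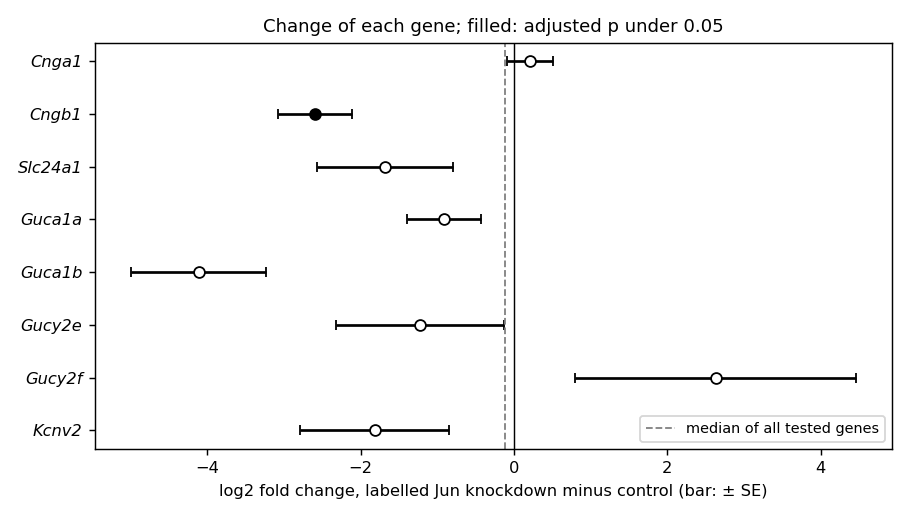
Log2 fold change of each gene, libraries labelled Jun knockdown minus controls, with bars of 1 standard error, filled where the adjusted p is under 0.05. Cngb1 is the only filled point, Guca1b lies farthest to the left at -4.11, and the dashed line marks the median of all tested genes, -0.12.

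Of the 8 genes, 6 had a negative and 2 a positive log2 fold change, with a median of -1.45, against -0.12 over all 12815 tested genes. In 5 of the 8 the groups did not overlap and the labelled libraries were lower, against 15.7% of all tested genes. At the transcript level 15 of the 26 listed transcripts were tested. With edgeR on filtered counts 0 passed, against 0.604% of all transcripts called lower and 0.058% called higher, and 5 were at an unadjusted p under 0.05, against 15.5% of all. With edgeR and no filter 1 passed (Cngb1-201), against 1.43% of all transcripts. With limma-voom 2 passed (Cngb1-206 and Cngb1-210), against 7.93% of all. In 9 of the 15 the labelled libraries were all lower, against 17.6% of all tested transcripts. These 9 include Cngb1-201, Cngb1-206, Cngb1-207, Cngb1-209 and Cngb1-210. The 5 at an unadjusted p under 0.05 in edgeR were Guca1b-201 and the Cngb1 forms 201, 206, 207 and 210. Forms of 1 gene share reads that are split by estimate and are not independent. Both counts therefore weigh Cngb1 several times.

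Ratios of paired genes within a library do not depend on how libraries are scaled, and 4 were compared. The log2 ratio of Cnga1 to Cngb1 was 3.11, 3.04 and 4.26 in labelled replicates 1, 2 and 3, against 0.99, -0.13 and 1.02 in controls. The labelled libraries thus held 8.21 to 19.1 estimated counts of Cnga1 per estimated count of Cngb1, all forms pooled, and controls 0.913 to 2.03. The deposited gene counts are not sums of the transcript counts, and with such sums the difference in the log2 ratio was 2.36 in place of 2.84. The log2 ratio of Guca1a to Guca1b was 3.40, 4.11 and 5.06 in the labelled libraries, against 1.43, 0.31 and 1.32 in controls. That of Cnga1 to Slc24a1 was 5.19, 6.18 and 4.71 in the labelled libraries, against 4.63, 2.09 and 3.89 in controls. These 3 ratios were higher in every labelled library than in every control, by 2.84, 3.17 and 1.82 on average, each with an exact two-sided permutation p of 0.1, the smallest possible with 3 against 3, and 0.133 adjusted over the 4 ratios. Without control replicate 2 the difference for Cnga1 to Slc24a1 was 1.10. The log2 ratio of Gucy2e to Gucy2f was 0.48, -3.62 and 4.21 in the labelled libraries, against 5.45, 1.26 and 1.99 in controls, and overlapped (exact permutation p = 0.4, adjusted p = 0.4).

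**Figure D4:**
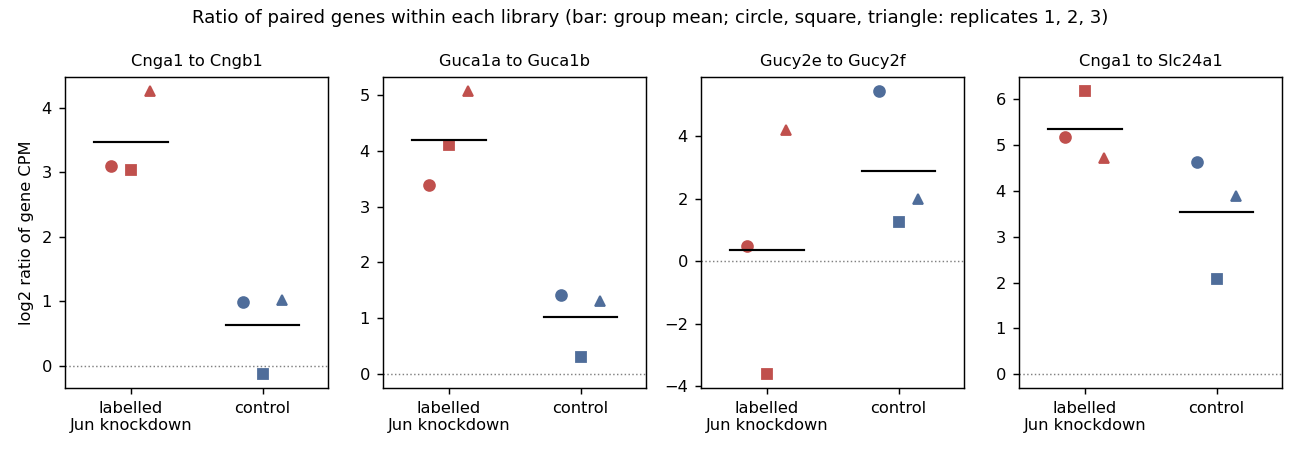
Log2 ratio of gene CPM for 4 gene pairs in each library, with a bar at the group mean. The labelled libraries lie above the controls for Cnga1 to Cngb1, Guca1a to Guca1b and Cnga1 to Slc24a1, and the groups overlap for Gucy2e to Gucy2f.

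To compare levels between genes, transcript counts were divided by annotated transcript length and scaled to 1000000 (length-scaled counts, the patch copies of Guca1a and Guca1b included). In controls Guca1a was at 700 ± 48.4, Cngb1 at 564 ± 258 and Cnga1 at 563 ± 117, and Cngb1 overlapped both others. Guca1b followed at 206 ± 101, Kcnv2 at 75.8 ± 31.9, Slc24a1 at 31.4 ± 27.1, Gucy2e at 8.64 ± 3.82 and Gucy2f at 2.05 ± 1.68 (SD, n = 3 each). Among these, Kcnv2 overlapped Slc24a1, and Guca1b stood apart from Kcnv2, Slc24a1 from Gucy2e and Gucy2e from Gucy2f. In the labelled libraries the order was Cnga1 at 831 ± 101, Guca1a at 507 ± 97.2, Cngb1 at 118 ± 52.0, Kcnv2 at 28.9 ± 29.4, Gucy2f at 18.3 ± 26.8, Guca1b at 15.2 ± 5.60, Slc24a1 at 11.4 ± 5.43 and Gucy2e at 4.73 ± 3.67. Cnga1, Guca1a and Cngb1 did not overlap one another there, while Cngb1 overlapped Kcnv2 by a narrow margin and each of the lower 5 overlapped its neighbour. The level of Cngb1 sums all its forms. Its full-length form alone was at 19.7, 30.0 and 15.7 in the labelled libraries, against 27.2, 29.0 and 4.83 in controls, far below Cnga1 in every library. Together, the 8 genes held 0.209% to 0.237% of the library's gene counts in the labelled libraries and 0.202% to 0.278% in controls. These shares are of raw library totals without TMM scaling, unlike the CPM above. The TMM factors were 1.10 to 1.35 in the labelled libraries and 0.796 to 0.873 in controls. Like shares of the sum also hide its make-up. Cnga1 was at 1074 to 1677 CPM in the labelled libraries, and Cngb1 at 78.1 to 195 CPM. In controls they were at 1021 to 1556 and 542 to 1117 CPM.

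**Figure D5:**
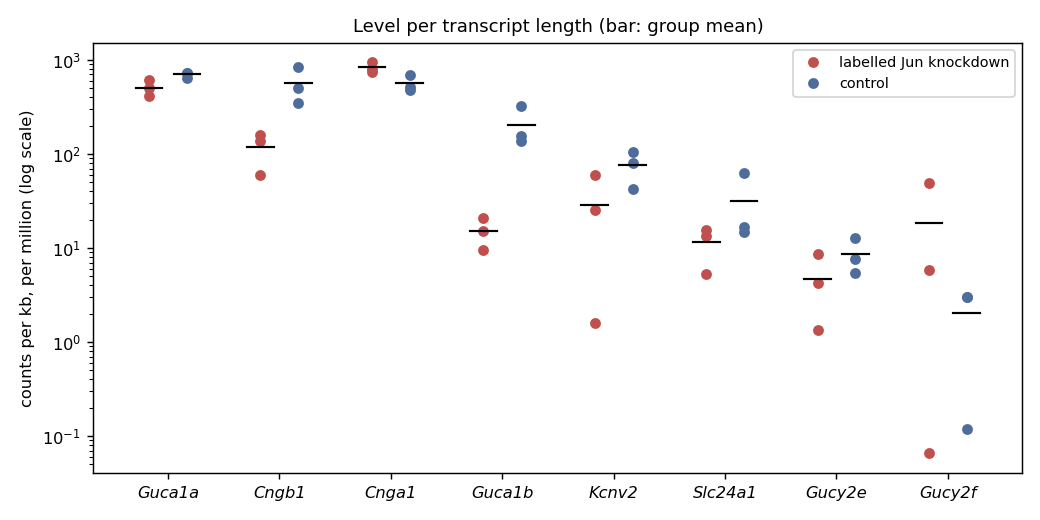
Length-scaled counts (per kb, scaled to 1000000) of each gene on a log axis, libraries labelled Jun knockdown left of controls, with a bar at each group mean and genes ordered by the control mean. Cnga1 and Cngb1 stand apart in the labelled libraries (means of 831 and 118) and have like means in controls (563 and 564). In both groups Cngb1 is the sum of all its forms, a retained-intron form included, and mostly not the full-length one.

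Among other genes of photoreceptor cGMP signalling, ion transport and their partners, cone genes included, 7 fell. Of a list of 27 such genes 23 were tested, 7 passed as lower, against 1.35% of all tested genes, and 0 as higher, against 0.32% (1 higher at an unadjusted p under 0.05, 1 with DESeq2 and 0 with limma-voom), with a list median of -1.65, against -0.12 over all tested genes. The list was drawn up with earlier results of these data known, so its count is not independent evidence. Of the 7, 6 were the phosphodiesterase genes Pde6b and Pde6g, Rd3, which encodes a protein that delivers the cyclases to the outer segment and holds them inactive on the way, Rcvrn, which encodes the calcium sensor recoverin, and the disc rim genes Prph2 and Rom1. Rd3 measured 8.03, 10.4 and 1.77 CPM in the labelled libraries, against 140.3, 289 and 161 CPM in controls (a log2 change of -4.87 with SE 0.94 and an edgeR adjusted p of 0.0431), and it has a copy on a patch sequence as well, so its level is uncertain. Pde6b measured 1127, 465 and 675 CPM in the labelled libraries, against 2865, 6269 and 2573 CPM in controls (a log2 change of -2.37 with SE 0.44 and an edgeR adjusted p of 0.0409). Rcvrn changed by -2.13 (SE 0.27), Pde6g by -1.65 (SE 0.20), Prph2 by -4.18 (SE 0.38) and Rom1 by -4.34 (SE 0.36). The call of Rd3 ended without any one of the 6 libraries and that of Pde6b without any except labelled replicate 1. Those of Pde6g and Rcvrn ended without control replicate 3, and those of Prph2 and Rom1 held with each library left out. With DESeq2 the calls of Pde6b, Pde6g and Rcvrn ended (adjusted p 0.0901 to 0.205), and with limma-voom those of Pde6b, Pde6g, Rd3 and Prph2 (0.0687 to 0.271). Those of Pde6b and Rd3 also ended under each other scaling, after thinning and with the replicate block.

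For both cone counterparts of the channel subunits, each labelled library was above each control. Cnga3, the cone alpha subunit, measured 4.97, 14.3 and 31.4 CPM in labelled replicates 1, 2 and 3, against 0.357, 0.133 and 0.36 CPM in controls (a log2 change of 5.89 with SE 1.75 and an edgeR adjusted p of 0.132). Cngb3, the cone beta subunit, measured 163, 92.9 and 335 CPM in the labelled libraries, against 22.9, 87.5 and 0.036 CPM in controls (a log2 change of 2.42 with SE 1.60 and an edgeR adjusted p of 0.475). Neither passed with edgeR, and Cnga3 passed with DESeq2. For Cngb3 the groups were separated by a narrow margin (92.9 against 87.5 CPM). Of the tested list, 2 of the 23 genes were higher without overlap, against 12.6% of all tested genes. Another 11 were lower without overlap, against 15.7% of all tested genes, in a list chosen with earlier results known. The summed cone markers given above, a list that includes Cnga3 and Cngb3, were lower in the labelled libraries, with 1 of 10 passing as lower. The cone exchanger gene Slc24a2 was at or under 0.932 CPM in every library and was not tested.

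Centred log2 CPM profiles over the 6 libraries were compared by Euclidean distance, to name the genes nearest to each of the 8. Predicted gene models and genes on patch sequences were left out, among them the patch copies of Guca1a and Guca1b, whose counts are identical. Of the remaining genes, the nearest were Ndufv2 (0.26) and Trpc4ap (0.29) for Cnga1, and Ip6k1 (0.39) and Osbpl9 (0.49) for Cngb1. For Guca1b they were Aldoa (0.79) and Akr7a5 (0.88). For Guca1a they were Rnasek (0.32) and Rps25 (0.33), for Kcnv2 Pdk2 (0.44) and Rpe (0.62), for Gucy2e Tigar (0.54) and Ttyh3 (0.61), and for Slc24a1 Slc1a7 (0.73) and Bbs9 (0.91). None of these remaining profiles came near to that of Gucy2f, whose closest were Ykt6 (2.13) and Ccdc9 (2.16). Within the set, Cnga1 and Guca1a lay closest (1.54), followed by Cngb1 and Guca1b (1.85), whereas the channel partners Cnga1 and Cngb1 were 3.73 apart. These distances describe 6 libraries in 2 groups and depend on the difference between them.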

How the data were processed

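RNA from sorted mouse rods was measured in 6 libraries, 3 per group, made with a low-input full-length cDNA kit and a tagmentation library kit, per the labels' protocols, which state no strand marking. Per the submitters' processing notes, the tools were Trimmomatic 0.39, kallisto 0.44.0 and edgeR 3.28.1, with no step assigned to any, and the sources used here do not give the genome build. The authors deposited estimated counts per gene and per transcript, which are not whole and were rounded, and a normalised gene signal whose columns sum to more than 1000000. The 8 genes have the start and end of GENCODE vM21 (GRCm38), which gave transcript lengths. Promoter sequences are from RefSeq, GRCm38.p6. No column was left out (0).

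After the filterByExpr filter and TMM scaling, groups were compared by the quasi-likelihood test of edgeR 4.0.16 in R 4.3.3, adjusted by Benjamini-Hochberg over all tested genes, threshold 0.05. The SE is the log2 fold change over the square root of F. "Passed" and "called" mean past that threshold. The functions were tested on simulated counts. Alternatives were other scalings and filters, DESeq2 1.42.0, limma 3.58.1 (voom, and trend on log2 of the deposited signal plus 0.5 or 2), thinning to the smallest library total, blocking on replicate number and omitting each library in turn. Named genes were the 8, their tested transcripts, listed related genes that passed, a few cone counterparts and partners, Jun, and the 2 nearest profiles per gene (log2 CPM, prior count 2). Predicted gene models and genes on patch sequences were not considered for the nearest profiles. Gm5297, Gucy2e-203, the distances within the set, the adding of patch copies and the full-length Cngb1 share were added after their values were seen. Members and lists were chosen with earlier results of these data known. Some listed related genes are not reported here.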

Additional observations from a re-analysis of the deposited data

How the results depend on the processing

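The direction of all 8 genes was the same in each of the 18 alternatives. Counts of calls were not stable. Of 12815 tested genes, 41 were called higher and 173 lower, but 55 and 89 with upper quartile scaling and 68 and 79 with library totals, which shifted the median gene by 0.39 and 0.50 on the log2 scale (0.15 for median of ratios). The 214 genes called became 737 with no filter, 533 with at least 10 counts in every library of a group, 1999 with DESeq2, 442 with limma-voom, 140 after thinning, 615 and 553 with limma-trend (pseudocounts 0.5 and 2), and 36 to 110 with a library left out. Of the 8 genes, 0 were called lower with median of ratios, upper quartile or library totals, with limma-voom, after thinning, or without any one library (0 to 0), and 2 (Cngb1 and Guca1b) with no filter, the stricter filter, either limma-trend fit or the patch copies added. With DESeq2 it was 1, Guca1b in place of Cngb1 (adjusted p = 0.0548 for Cngb1). The 137 transcripts called became 64 with library totals, 1085 with no filter, 1642 with limma-voom and 22 to 101 with a library left out. Of the listed related genes, 7 called lower, 4 were lower with upper quartile, library totals or thinning, 3 with DESeq2, 2 with limma-voom and 2 to 5 with a library left out. DESeq2 called 1 higher, Cnga3. The cause was not tested.

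With the replicate block, 97 genes and 82 transcripts were called, Cngb1 was still called lower, and 4 of the related genes were. Same-numbered libraries did not deviate together (correlations 0.00, 0.01 and -0.02). With 3 libraries per group, each centred on its group mean, a small shared effect could be missed. Whether the numbers pair the libraries is therefore unknown.

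Some changes turned sign, and the cause was not tested. Cnga1-201 (-0.02) was 0.018 with median of ratios, 0.75 with library totals, 0.024 with limma-voom, and -0.24 to 0.17 with a library left out, positive without labelled replicate 2 (0.17) or control 1 (0.13). Cnga1-206 (-0.02) was 0.77 with library totals, 0.25 with limma-voom, and -0.46 to 0.23 with a library left out, positive without labelled replicate 1 (0.03) or 3 (0.23) or control 3 (0.23). Cngb1-202 (-0.52) was 0.34 with library totals. The difference in the noncoding share of Cnga1 (0.051 percentage points) ranged from -0.54 to 0.53 with a library left out. That of Cngb1 (-0.57) ranged from -3.11 to 3.00, and was 4.73 with retained-intron forms alone. The full-length share of Cngb1 differed by 42.3 to 56.2 percentage points with a library left out.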

Other observations

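Jun and Kcnv2 had their lowest levels in the same library. Labelled replicate 1 held 1.84 CPM of Jun, against 17.6 and 19.3 CPM in the other labelled libraries, and 5.38 CPM of Kcnv2, against 164 and 89.6 CPM. Between labelled replicates 2 and 3, Jun rose and Kcnv2 fell. None of the other genes of the set had its lowest labelled level in replicate 1. Cnga1, Cngb1, Guca1b and Gucy2e had their highest labelled level there (1677, 195, 11.2 and 43.6 CPM). These values come from single libraries and were not tested.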
